A study of Mus musculus with 36 samples.

Results

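Myc and a set of genes whose products build ribosomes, 35 named genes in all, were followed through arrays of mouse CD4 T cells with and without TRIM28. Each gene was read from the probe set annotated with its symbol alone, or from the one with the highest mean over all samples where there were several. A value was obtained for 33 of the 35 genes, out of 22180 genes read in this way. Fbl and Tsr1 were left out because they are annotated only on a probe set that carries another symbol as well. All 33 genes exceeded the filter on low values, which kept 13082 genes for testing.

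The arrays covered 12 groups of 3 samples, 36 in all. The KO groups were CD4 T cells of TRIM28 KO mice and the WT groups were those of their littermates, and both had been enriched on magnets and sorted as naive cells. In each genotype, cells were taken naive or after 72 h on plate-bound antibody to CD3 with soluble antibody to CD28, in conditions named Th0, Th1, Th2, Th17 and Treg. The labels give neither the promoter behind the deletion, nor the age of the mice, nor the cytokines of each condition. Nor do they state that replicates are different mice, and the p-values then cover only the spread from sample to sample, which may be technical. TRIM28 is a nuclear co-repressor, recruited to DNA by zinc-finger proteins.

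Myc is a transcription factor that binds DNA as a dimer with Max, commonly at the E-box CACGTG, and is known in T cells as a driver of growth after stimulation through the antigen receptor. Among its best known targets are genes of ribosome biogenesis. In that process RNA polymerase I transcribes ribosomal RNA in the nucleolus, small nucleolar RNPs (snoRNPs) modify it, and large sets of assembly factors fold and cleave it into the small and the large ribosomal subunit before export. The genes are described below by these roles.

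The promoters, 250 bases before to 50 after the annotated start, were searched for CACGTG, which reads the same on both strands. RefSeq promoters on GRCm38.p6 were matched for 27 of the 33 genes, 30 promoters in all. The promoters of Bop1, Dcaf13, Myc, Npm1, Rrp12 and Rrs1 were not used here. CACGTG occurred in 7 of the 30 promoters (23.3%), each of a different gene, against 2349 of 32851 promoters in the whole table (7.15%). It occurred in 24 of 113 promoters (21.2%) of another list of ribosome biogenesis genes. The other 20 matched genes had none in this window. The stretches that hold it are shown because it is the E-box named above, with the E-box in capitals and each read 5′ to 3′ on the strand of its gene.
Nop2, chr6:125131776-125131875, plus strand: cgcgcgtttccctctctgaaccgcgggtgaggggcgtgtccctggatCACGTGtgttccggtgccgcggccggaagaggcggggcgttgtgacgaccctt
Pes1, chr11:3963965-3963994, plus strand: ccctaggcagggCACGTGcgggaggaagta
Mybbp1a, chr11:72441355-72441376, plus strand: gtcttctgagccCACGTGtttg
Wdr43, chr17:71616220-71616249, plus strand: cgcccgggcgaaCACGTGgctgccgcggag
Ltv1, chr10:13193092-13193121, minus strand: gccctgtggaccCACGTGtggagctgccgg
Utp20, chr10:88826765-88826789, minus strand: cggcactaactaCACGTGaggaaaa
Pno1, chr11:17211540-17211564, minus strand: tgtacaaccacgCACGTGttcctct

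In Nop2 the E-box began 60 bases before the annotated start, and in the other 6 genes it began after it. A match is a stretch of letters and no binding was measured here. The motif CGCATGCG occurred in 1 of the 30 promoters (3.33%), against 1.87% of all promoters. A longer palindromic element, also searched, occurred in none of them, against 0.466% of all promoters.

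Values are RMA log2 intensities, so that a difference of 1 is a doubling of signal, and the levels of different genes on different probes were not compared. Trim28 itself ranged from 7.20 to 7.86 in the naive KO group and from 5.51 to 6.58 over the 15 stimulated KO samples, against 9.21 to 9.99 over the 18 WT samples. Sample medians over the whole table lay between 5.18 and 5.35. Because RMA sets all arrays to a common scale, a change in total RNA per cell is not visible, and in bulk samples fewer cells of a type and less RNA per cell cannot be told apart. The T cell genes Cd3e, Cd3d, Cd3g, Cd4, Cd5 and Cd28, which are 6 of 8 listed markers and the ones with a value, lay between 8.27 and 12.6 in all samples. Of the markers of other cells, Klrb1c and Ncr1 of NK cells, Cd79a and Ms4a1 of B cells and Cd14, Csf1r and Lyz2 of myeloid cells stayed at or below 5.20 in every sample. The other listed markers of these cells reached higher: Cd8b1 lay between 6.18 and 8.84, Prf1 between 5.43 and 9.49, Cd8a up to 6.5, Cd79b up to 6.26, Ebf1 up to 9.27, Adgre1 up to 10.3 and Itgam up to 7.87. Those 7 markers are the ones that passed the filter, 3 of CD8 T and NK cells, 2 of B cells and 2 of myeloid cells, and list medians below are taken over them.

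A pair of KO samples stood apart. Mki67, a proliferation marker, was 8.61 in KO Th0 sample 1 and 9.0 in KO Th1 sample 1, against 10.6 to 10.9 in the other samples of those groups. Counts of the 33 genes for KO Th0 and KO Th1 are therefore given with and without both. Genes whose call against WT in Th0 or Th1 was lost without them are named. WT Th2 sample 1 and KO Treg sample 3 stood apart from their groups on the genes described here: the median deviation of the 33 genes from their means over all samples was 0.10 in WT Th2 sample 1, against -0.32 and -0.40 in the other 2, and -0.38 in KO Treg sample 3, against 0.06 and 0.11.

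In Th0 conditions 28 of the 33 genes fell in KO cells and none rose, by limma at an adjusted p under 0.05, while 19.6% of all tested genes fell and 16.8% rose. The median log2 difference, KO minus WT, was -0.61 over the 33 genes and -0.00 over all genes, and the single genes ranged from -1.14 to -0.04. For 30 of the 33 genes the 3 KO samples all lay below the 3 WT samples, which held for 26.2% of all genes. Without the KO samples numbered 1 in Th0 and Th1, 25 genes fell, with a median of -0.60. The calls lost were those of Myc, Noc3l and Noc4l.

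**Figure D1:**
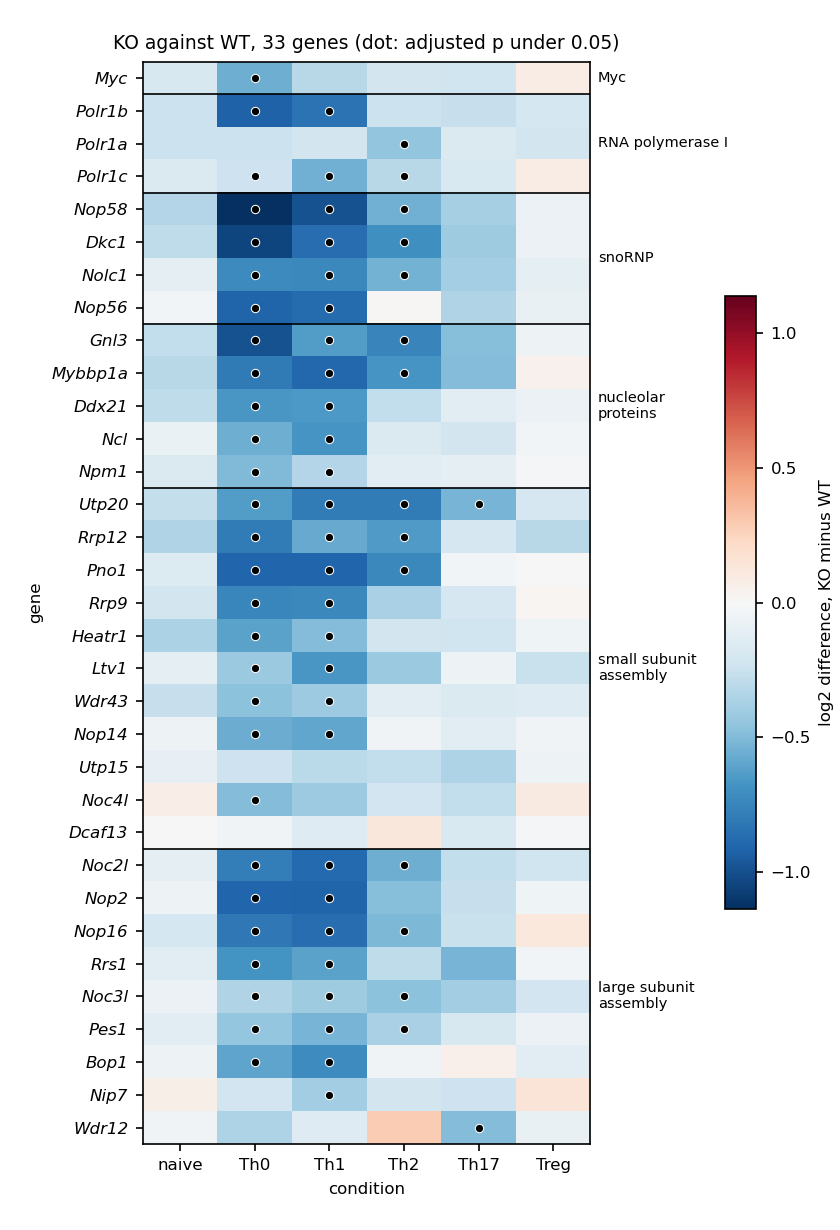
Difference between KO and WT cells for 33 genes (rows, grouped by role) in 6 conditions (columns). Colour gives the log2 difference, KO minus WT, blue for lower in KO, and a dot marks an adjusted p under 0.05 by limma; 28 genes carry a dot in Th0, 27 in Th1, 14 in Th2, 2 in Th17 and none in naive or Treg samples.

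The snoRNP genes fell in Th0 with no exception among the 4 measured, with a median of -0.98. Nop58, a core protein of the box C/D particles that guide ribosomal RNA methylation, had values of 8.06, 8.49 and 8.11 in KO Th0 samples and 9.51, 9.26 and 9.30 in WT Th0 samples. The groups did not overlap, and the fall of 1.14 (SE 0.18, adjusted p = 1.97e-05, limma) was the largest among the 33 genes, a 2.20-fold lower signal in KO. Dkc1, the pseudouridine synthase of the box H/ACA particles, had values of 7.99, 8.34 and 8.18 in KO samples and 9.14, 9.26 and 9.25 in WT samples. It too fell without overlap, by 1.05 (SE 0.23, adjusted p = 0.000607). Nop56, the partner of Nop58, had values of 9.47, 9.66 and 9.70 in KO samples and 10.61, 10.49 and 10.47 in WT samples, a fall of 0.91 (SE 0.16, adjusted p = 5.25e-05). Of the other 2 Nop56 probe sets, dimmer on average, one gave -1.29 and one 0.07 in the same comparison. Nolc1, a chaperone of these particles, fell by 0.72.

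All 5 nucleolar proteins fell in Th0 as well, with a median of -0.66. Gnl3, called nucleostemin, had values of 7.67, 7.86 and 7.88 in KO samples and 9.03, 8.72 and 8.62 in WT samples. No KO sample reached the WT range, and the fall was 0.99 (SE 0.21, adjusted p = 0.000462). The nucleolar phosphoproteins Ncl (nucleolin) and Npm1 (nucleophosmin) followed. Ncl had values of 10.30, 10.66 and 10.34 in KO samples and 11.06, 10.93 and 10.99 in WT samples, and fell by 0.56 (SE 0.11, adjusted p = 0.000283). Npm1 had values of 10.67, 10.99 and 10.38 in KO samples and 11.07, 11.17 and 11.30 in WT samples, and fell by 0.50 (SE 0.13, adjusted p = 0.00331). Its second probe set gave -0.53. Mybbp1a, a nucleolar protein that binds Myb, fell by 0.80, and Ddx21, a nucleolar RNA helicase, fell by 0.66.

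Of the RNA polymerase I subunits, 2 of 3 fell in Th0. Polr1b, its second largest subunit, had values of 7.23, 7.34 and 7.40 in KO Th0 samples and 8.40, 8.23 and 8.11 in WT Th0 samples, and fell by 0.92 (SE 0.22, adjusted p = 0.00141). Polr1a, the largest subunit, had values of 8.58, 8.60 and 8.45 in KO samples and 8.93, 8.71 and 8.74 in WT samples. Its groups did not overlap, but the difference of -0.25 did not pass the test (SE 0.13, adjusted p = 0.129). Polr1c, which is shared with RNA polymerase III, fell by 0.24 (SE 0.08, adjusted p = 0.0234).

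Among the factors of small subunit assembly 9 of 11 fell in Th0, with a median of -0.57. The largest falls were those of Pno1, by 0.91, and Rrp12, by 0.79, both of which act on the late precursor of the small subunit. Utp20, a scaffold of the early precursor, had values of 7.23, 7.33 and 7.34 in KO samples and 8.03, 7.88 and 7.90 in WT samples, and fell by 0.64 (SE 0.16, adjusted p = 0.00246). The exceptions were Utp15 and Dcaf13, both of the small subunit processome. Utp15 had values of 8.76, 8.60 and 8.23 in KO samples and 8.89, 8.72 and 8.71 in WT samples (difference -0.24, adjusted p = 0.21). Dcaf13 had values of 8.41, 8.39 and 8.69 in KO samples and 8.40, 8.59 and 8.62 in WT samples (difference -0.04, adjusted p = 0.835). Both sets of values overlapped.

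Of the factors of large subunit assembly 7 of 9 fell in Th0, with a median of -0.60. Nop2, a methyltransferase of the large subunit RNA, fell by 0.91, and Nop16 fell by 0.81. Pes1, Bop1 and Wdr12 form one complex, of which Bop1 and Pes1 fell. Bop1 had values of 8.65, 8.72 and 8.79 in KO samples and 9.36, 9.39 and 9.22 in WT samples, and fell by 0.60 (SE 0.14, adjusted p = 0.00127). Pes1 fell by 0.44 (SE 0.12, adjusted p = 0.00552). Wdr12 had values of 6.95, 7.09 and 6.64 in KO samples and 7.34, 7.15 and 7.22 in WT samples, without overlap, and its difference of -0.35 did not pass (SE 0.15, adjusted p = 0.0644). Nip7, which joins the pre-60S particle, had values of 7.81, 7.80 and 7.48 in KO samples and 8.03, 7.77 and 7.92 in WT samples, which overlapped (difference -0.22, adjusted p = 0.296).

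Myc itself had values of 10.00, 10.37 and 10.24 in KO Th0 samples and 10.78, 10.74 and 10.76 in WT Th0 samples. The KO samples all lay below the WT samples, and Myc fell by 0.56 (SE 0.20, adjusted p = 0.0331, limma), a 1.47-fold lower signal. This call was lost in 6 of 18 alternative settings, each of which left out 1 or 2 samples. Without KO Th0 sample 1 the difference was -0.45 (adjusted p = 0.145).

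**Figure D2:**
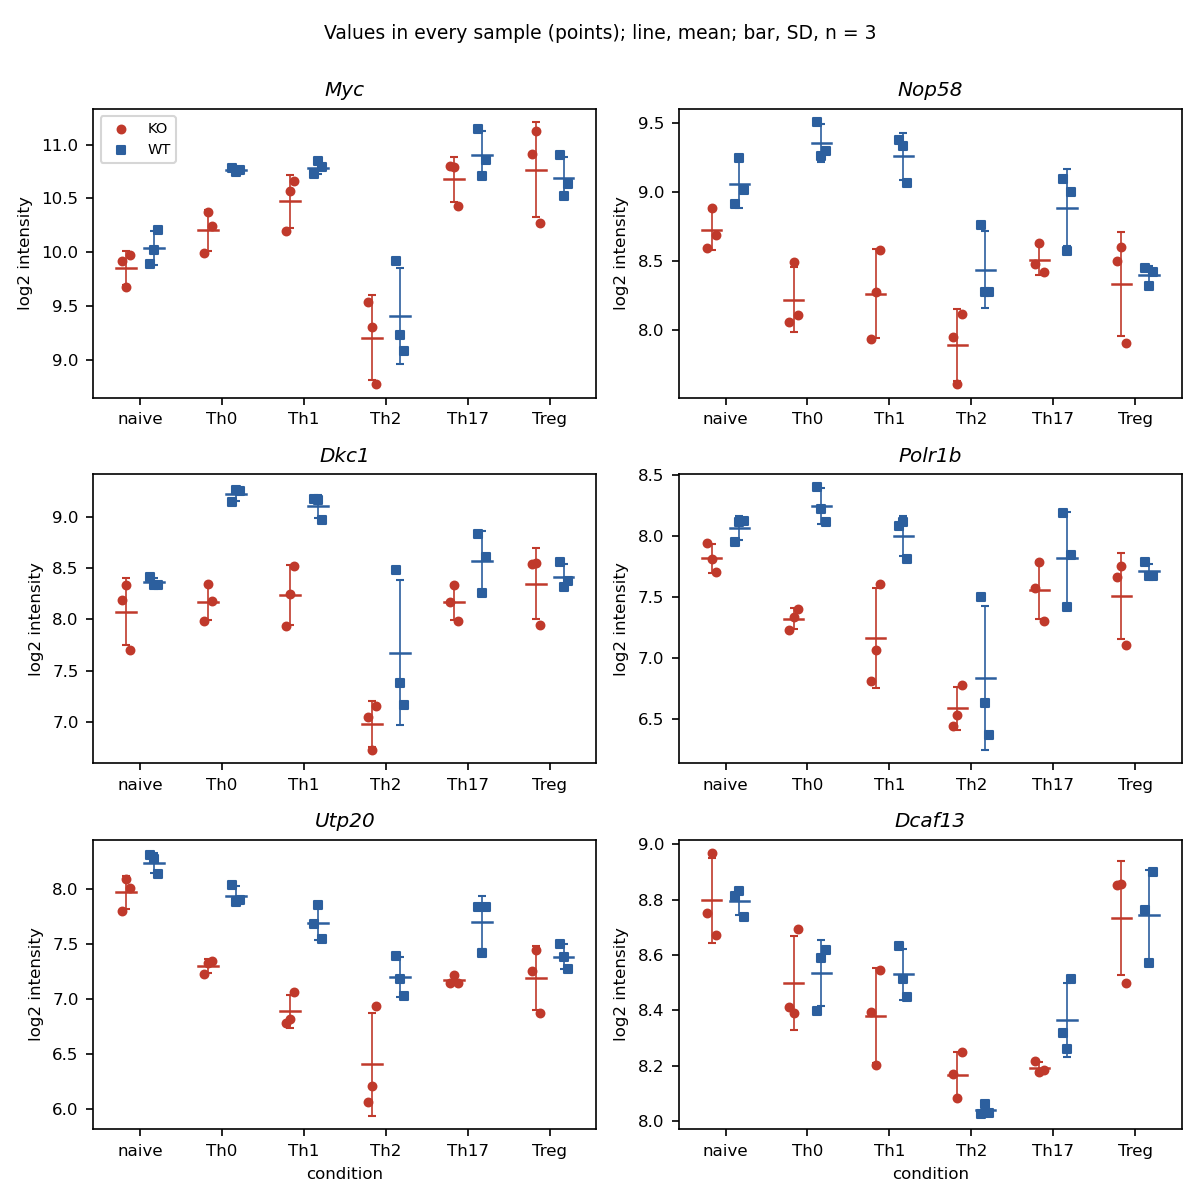
Log2 intensity (vertical axis) of Myc, Nop58, Dkc1, Polr1b, Utp20 and Dcaf13 in every sample by condition (horizontal axis); red points are KO samples and blue squares WT samples, with the mean as a line and the SD as a bar (n = 3). KO samples lie below WT samples in Th0 for each gene but Dcaf13, and the lowest mean of each gene is that of KO Th2, or for Dcaf13 that of WT Th2.

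In Th1 conditions 27 of the 33 genes fell in KO cells and none rose, while 23.7% of all genes fell and 17% rose. The median log2 difference came to -0.63 over the 33 genes and -0.03 over all genes. For 30 of the 33 genes the 3 KO samples lay below the 3 WT samples, against 29.8% of all genes. Without the KO samples numbered 1 in Th0 and Th1, 22 genes fell, with a median of -0.55. The calls lost were those of Gnl3 (-0.51, adjusted p = 0.101), Rrp12, Noc3l, Nip7 and Npm1. By role, all 4 snoRNP genes, all 5 nucleolar proteins, 8 of 11 small subunit factors, 8 of 9 large subunit factors and 2 of 3 RNA polymerase I subunits fell.

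Nop58 again moved most, with values of 7.94, 8.28 and 8.58 in KO Th1 samples and 9.38, 9.34 and 9.06 in WT Th1 samples. Its difference was -1.0 (SE 0.18, adjusted p = 8.27e-05, limma), and the groups did not overlap. Nop2 had values of 8.10, 8.39 and 8.87 in KO samples and 9.37, 9.46 and 9.27 in WT samples, and fell by 0.91 (SE 0.17, adjusted p = 0.000122). Pno1 had values of 7.31, 7.94 and 7.92 in KO samples and 8.78, 8.63 and 8.47 in WT samples, and fell by 0.90 (SE 0.20, adjusted p = 0.000579). In each of these genes KO Th1 sample 1 was the lowest, and all KO samples stayed below the WT samples.

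Most of the other genes followed in Th1. Polr1b fell by 0.84, Dkc1 by 0.86, Nop56 by 0.88, Utp20 by 0.80 and Bop1 by 0.71. The other 2 Nop56 probe sets gave 0.25 and -1.10 in this comparison. Ncl fell by 0.67 (adjusted p = 3.08e-05), and Npm1 fell by 0.33 (adjusted p = 0.0436). The call of Npm1 was lost in 7 of 18 alternative settings, and without KO Th1 sample 1 its difference was -0.20 (adjusted p = 0.298). Nip7, not called in Th0, fell by 0.39 in Th1 (SE 0.15, adjusted p = 0.0409), a call lost without the KO samples numbered 1 (-0.40, adjusted p = 0.0921).

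The 6 genes that did not pass in Th1 were Myc, Noc4l, Utp15, Polr1a, Dcaf13 and Wdr12. For Myc the values were 10.19, 10.57 and 10.66 in KO samples and 10.73, 10.84 and 10.79 in WT samples. The groups did not overlap, and the difference of -0.31 did not pass (SE 0.20, adjusted p = 0.237). The differences of the other 5 ran from -0.41 for Noc4l, a factor of small subunit assembly, to -0.15 for Wdr12.

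Beside these falls the CD4 T cell markers lay higher in KO cells. The median deviation of the 6 markers was 0.15 to 0.22 in KO Th0 samples and -0.10 to 0.01 in WT Th0 samples, and 0.14 to 0.35 in KO Th1 samples and -0.03 to 0.01 in WT Th1 samples. Of the markers of other cells, Prf1 rose by 0.52 in KO Th0 cells, while Cd8b1 fell by 0.59 and Cd79b by 0.50, and none passed in Th1. Genes of proliferation moved as well. Of 29 tested from a list, all 29 fell in KO Th0 cells and all 29 in KO Th1 cells, with medians of -1.83 and -1.40. Without the KO samples numbered 1 these were 29 and 25 genes, with medians of -1.27 and -0.87. The part of any of these lists in the falls described above was not tested.

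**Figure D3:**
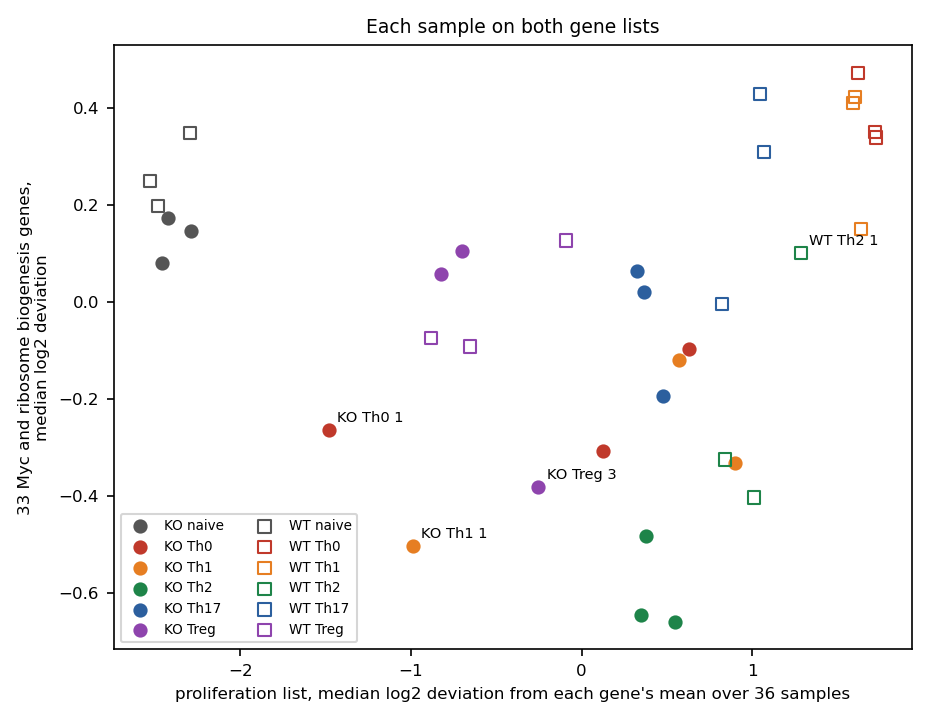
Each of the 36 samples placed by the median log2 deviation of the proliferation genes (horizontal axis) and of the 33 Myc and ribosome biogenesis genes (vertical axis) from their means over all samples; filled circles are KO and open squares WT, coloured by condition. KO Th0 sample 1 (-1.48) and KO Th1 sample 1 (-0.99) lie far to the left of their groups, naive samples lie low on proliferation without being low on the 33 genes, and KO Th2 samples 1 and 2 are lowest on the 33 genes.

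In Th2 conditions 14 of the 33 genes fell in KO cells and none rose, while 8.88% of all genes fell and 7.51% rose. The median over the 33 genes was -0.31. The KO samples lay below the WT samples for 17 genes, against 17.9% of all genes, and above them for 1, against 13.6% of all genes. The count rested on few samples: it was 2 without WT Th2 sample 1, 7 without KO Th2 sample 1 and 5 without KO Th2 sample 2. When the fit held only the 2 Th2 groups it was 1.

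Utp20 moved most in Th2, with values of 6.07, 6.21 and 6.94 in KO samples and 7.39, 7.18 and 7.03 in WT samples. It fell by 0.79 (SE 0.16, adjusted p = 0.000814, limma), without overlap. Gnl3 had values of 7.10, 7.14 and 7.03 in KO samples and 8.29, 7.65 and 7.57 in WT samples, and fell by 0.75 (SE 0.21, adjusted p = 0.0122). Pno1 had values of 7.04, 7.15 and 7.46 in KO samples and 8.34, 7.70 and 7.81 in WT samples, and fell by 0.73 (SE 0.20, adjusted p = 0.00954). In the last 2 genes WT Th2 sample 1 was the highest by over 0.5, and without it neither passed: the differences were -0.53 for Gnl3 (adjusted p = 0.112) and -0.54 for Pno1 (adjusted p = 0.0865).

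Dkc1 fell by 0.70 in Th2 (SE 0.23, adjusted p = 0.0333). Its values were 7.05, 6.73 and 7.15 in KO samples and 8.48, 7.39 and 7.17 in WT samples, so that WT Th2 sample 3 lay just above the highest KO sample. The call was lost in 4 of 18 settings, and without WT Th2 sample 1 the difference was -0.30 (adjusted p = 0.356). Polr1a, which had not passed in Th0 or Th1, fell by 0.45 in Th2 (SE 0.13, adjusted p = 0.0126). Nop56, by contrast, had values of 10.39, 9.98 and 10.33 in KO samples and 10.45, 10.16 and 10.07 in WT samples, which overlapped (difference 0.01, adjusted p = 0.983). The Myc values were 9.54, 9.30 and 8.77 in KO samples and 9.92, 9.23 and 9.08 in WT samples, which overlapped too (difference -0.21, SE 0.20, adjusted p = 0.561). Dcaf13 was the gene whose KO samples lay above its WT samples, with a difference of 0.13 (adjusted p = 0.476).

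A marker of macrophages, Adgre1, moved beside these genes in Th2: it rose by 1.10 in KO Th2 cells (SE 0.22, adjusted p = 0.000647, limma). The median deviation of Adgre1 and Itgam, the 2 of 5 myeloid markers that passed the filter, was 1.75 to 2.37 in KO Th2 samples and 1.07 to 1.49 in WT Th2 samples, while Cd14, Csf1r and Lyz2 stayed at or below 5.20 in every sample of the series. The CD4 T cell markers had a median deviation of -0.06 to 0.01 in KO Th2 samples and -0.25 to -0.22 in WT Th2 samples. Of the 29 proliferation genes, 1 fell in Th2, with a median of -0.63, and 21 fell when the KO samples numbered 1 in Th0 and Th1 were left out of the fit. The part of these lists was not tested.

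In Th17 conditions 2 of the 33 genes fell in KO cells and none rose, while 4.18% of all genes fell and 4.03% rose, and the median difference was -0.24. Utp20 had values of 7.14, 7.22 and 7.15 in KO samples and 7.84, 7.42 and 7.83 in WT samples, and fell by 0.53 (SE 0.16, adjusted p = 0.0375, limma). Wdr12 had values of 6.40, 6.65 and 6.64 in KO samples and 7.16, 6.87 and 7.15 in WT samples, and fell by 0.49 (SE 0.15, adjusted p = 0.032). In both genes WT Th17 sample 2 was the lowest WT sample and still lay above all KO samples. The KO samples lay below the WT samples for 9 genes, against 17.5% of all genes.

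Without WT Th17 sample 2 the count in Th17 was 6, and without any 1 of the other 5 samples it was 0. Myc was measured at 10.80, 10.79 and 10.43 in KO Th17 samples and 11.14, 10.71 and 10.86 in WT Th17 samples, which overlapped (difference -0.23, SE 0.20, adjusted p = 0.596). Of the 29 proliferation genes 3 fell in Th17, and 16 fell when the KO samples numbered 1 in Th0 and Th1 were left out of the fit. Among markers of other cells, Itgam rose by 0.77 and Prf1 by 0.70 in KO Th17 cells. From the same lists Adgre1, with a difference of -0.24, and Cd8a and Cd8b1, with differences between -0.19 and -0.15, did not pass. Of the B cell markers, Cd79b rose by 0.51 (SE 0.16, adjusted p = 0.0376), Ebf1 reached up to 9.27 in Th17 groups, and Cd79a and Ms4a1 stayed below 5 in every sample. The part of these genes was not tested.

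In Treg conditions none of the 33 genes passed the test in limma, against 2.51% of all genes that fell and 1.71% that rose, and none had an unadjusted p under 0.05. The differences ran from -0.31 for Rrp12 to 0.15 for Nip7, with a median of -0.06. The KO samples lay below the WT samples for 1 gene, against 12% of all genes. In the same comparison Myc had values of 10.91, 11.12 and 10.27 in KO Treg samples and 10.90, 10.52 and 10.63 in WT Treg samples, so that the KO samples spanned the WT range (difference 0.08, SE 0.20, adjusted p = 0.923). Nop58 had values of 8.50, 8.60 and 7.90 in KO samples and 8.45, 8.32 and 8.42 in WT samples (difference -0.06, adjusted p = 0.934). In both genes KO Treg sample 3 was the lowest of the 6. The median deviation of the 3 CD8 and NK markers that passed the filter was 1.02 to 1.40 in KO Treg samples and -0.02 to 0.59 in WT Treg samples, and that of Adgre1 and Itgam was 0.71 to 1.10 in KO Treg samples and -0.37 to -0.13 in WT Treg samples. Prf1, which encodes perforin, rose by 1.67, Cd8a rose by 1.02 and Itgam, an integrin of myeloid cells, rose by 1.72 in KO Treg cells, and the part of these lists was not tested.

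In naive cells none of the 33 genes passed in limma either, against 0.199% of all genes that fell and 0.948% that rose, and 3 had an unadjusted p under 0.05. Their median was -0.16, and 30 of the 33 differences were below 0. The KO samples lay below the WT samples for 11 genes, against 5.8% of all genes. The largest difference was that of Heatr1, a factor of small subunit assembly, with values of 8.90, 9.06 and 8.82 in KO samples and 9.24, 9.30 and 9.33 in WT samples (difference -0.36, SE 0.13, adjusted p = 0.353). Myc had values of 9.92, 9.68 and 9.97 in naive KO samples and 9.89, 10.02 and 10.21 in naive WT samples, which overlapped (difference -0.18, SE 0.20, adjusted p = 0.913). Xist, by which the sex of a mouse can be read, was high in 2 of the 3 naive KO samples and 1 of the 3 naive WT samples, and low in the other 33 samples.

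Across Th0, Th1, Th2 and Th17, Utp20 was the one gene of the 33 that fell in KO cells in all 4 conditions, which 0.864% of all genes did. Its call in Th17 was lost in 7 of 18 alternative settings, with an adjusted p of up to 0.172 in limma. Its call in Th2 was lost in 1 of 18, the fit of the compared groups alone (adjusted p = 0.0725). A further 12 genes fell in 3 of the 4, against 4.56% of all genes, and 13 fell in 2, against 13.4% of all genes. Myc, Nip7, Noc4l, Polr1a and Wdr12, 5 of the 33, fell in 1, against 12.4% of all genes. Dcaf13 and Utp15 fell in none, against 68.8% of all genes.

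Whether the genotype difference was itself unlike that in Th0 was tested as a difference of differences, in which a positive value means that KO minus WT was higher than in Th0. No gene of the 33 had a negative difference past the test in any of the 5 conditions. In Treg conditions 14 of the 33 genes had a positive difference past the test, against 13.1% of all genes with a positive and 13.9% with a negative one, and the median was 0.55. The largest was that of Nop58, 1.07 (SE 0.26, adjusted p = 0.00279, limma), followed by Dkc1 with 0.98 (SE 0.32, adjusted p = 0.0236) and Nop16 with 0.93 (SE 0.25, adjusted p = 0.00627). Without KO Treg sample 3 the count was 24, and it was 9 without KO Treg sample 1, 8 without KO Treg sample 2 and 9 without WT Treg sample 2.

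For naive cells, 6 genes had a positive difference past the test, against 10.4% of all genes with a positive and 8.06% with a negative one, led by Nop56 with 0.88 (SE 0.22, adjusted p = 0.00706), Nop2 with 0.85 (SE 0.24, adjusted p = 0.0151) and Nop58 with 0.80 (SE 0.26, adjusted p = 0.0283). For Th2, 3 genes passed, against 4.97% of all genes with a positive and 5.22% with a negative difference: Nop56 with 0.92 (SE 0.22, adjusted p = 0.00835), Wdr12 with 0.64 (adjusted p = 0.0463) and Nop14, a factor of small subunit assembly, with 0.52 (adjusted p = 0.0417). For Th17, 4 genes passed, against 7.41% of all genes with a positive and 8.22% with a negative difference: Pno1 with 0.87 (adjusted p = 0.032), Nop58 with 0.76 (adjusted p = 0.0432), Bop1 with 0.66 (adjusted p = 0.0239) and Ddx21 with 0.54 (adjusted p = 0.0313). For Th1 none passed in limma, against 0.138% of all genes with a positive and 0.451% with a negative difference, and 1 had an unadjusted p under 0.05; the median was 0.00.

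The counts of these differences moved when the KO samples numbered 1 in Th0 and Th1 were left out, to 13 in Treg, 3 in naive cells, 1 in Th2 and 1 in Th17. Myc passed in none of the 5 differences, the largest being 0.64 in Treg (SE 0.29, adjusted p = 0.105). All 5 differences and the 4 lineage comparisons below share the Th0 samples. Markers of other cells also had positive differences past the test. In Treg these were 1.85 for Itgam, 1.15 for Prf1, 0.96 for Cd8a and 0.84 for Cd8b1, while the T cell marker Cd28 had -0.66. In Th2 the difference was 1.30 for Adgre1, in Th17 1.01 for Cd79b and 0.90 for Itgam, and in naive cells 0.65 for Cd79b. Of the 29 proliferation genes, 24 passed in Treg, 25 in naive cells, 6 in Th2 and 5 in Th17, all with a positive difference. The part of these lists was not tested.

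Stimulation without a lineage condition was compared with the naive state in each genotype. In WT cells, Th0 against naive, 5 of the 33 genes rose, against 31.2% of all genes, and 3 fell, against 22.3% of all genes. The median difference was 0.12 over the 33 genes and 0.04 over all genes. When each sample was centred on its median, 8 rose and 1 fell, and with cyclic loess 7 rose and 4 fell.

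Dkc1 rose most in WT Th0 cells, with values of 9.14, 9.26 and 9.25 in Th0 samples and 8.41, 8.33 and 8.34 in naive samples, by 0.86 (SE 0.23, adjusted p = 0.00218, limma). Myc had the WT Th0 values given above, 10.78, 10.74 and 10.76, against 9.89, 10.02 and 10.21 in naive WT samples. The groups did not overlap, and Myc rose by 0.72 (SE 0.20, adjusted p = 0.00387). Noc4l had values of 9.41, 9.46 and 9.26 in Th0 samples and 8.61, 8.85 and 8.62 in naive samples, and rose by 0.68 (SE 0.18, adjusted p = 0.00182). Nop2 and Nop16 rose by 0.63 and 0.55, also without overlap.

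The genes that fell in WT Th0 cells were Polr1a, Rrp12 and Dcaf13. Polr1a had values of 8.93, 8.71 and 8.74 in Th0 samples and 9.40, 9.57 and 9.47 in naive samples, and fell by 0.69 (SE 0.13, adjusted p = 3.77e-05). Rrp12 fell by 0.57 (SE 0.19, adjusted p = 0.0135) and Dcaf13 by 0.26 (SE 0.11, adjusted p = 0.0447). The call of Dcaf13 was lost in 9 of 18 settings, with a difference of -0.14 (adjusted p = 0.297) when samples were centred on their medians. Rrp12 lost its call in 3 of 18 settings, among them those without WT naive sample 2 (-0.49, adjusted p = 0.0605) and without WT Th0 sample 2 (-0.47, adjusted p = 0.0723). Npm1, with a difference of -0.06 on the probe set used here, had -1.21 on its second probe set. Nop56, with 0.19 on the probe set used here, had -1.20 and -0.18 on its other 2.

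In KO cells, Th0 against naive, 17 of the 33 genes fell, against 14.7% of all genes, and none rose, against 26.2% of all genes. The median difference was -0.36. Without the KO samples numbered 1 in Th0 and Th1, 13 genes fell, and without KO Th0 sample 3, 11 did. With a term for the sex read from Xist, 13 fell. By role, 9 of 11 small subunit factors, 4 of 5 nucleolar proteins, 2 of 4 snoRNP genes, 1 of 3 RNA polymerase I subunits and 1 of 9 large subunit factors fell.

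Rrp12 moved most in KO cells, with values of 6.47, 6.44 and 6.42 in Th0 samples and 7.37, 7.53 and 7.50 in naive samples, a fall of 1.02 (SE 0.19, adjusted p = 9.44e-05, limma). Gnl3 had values of 7.67, 7.86 and 7.88 in Th0 samples and 8.35, 8.66 and 8.61 in naive samples, and fell by 0.74 (SE 0.21, adjusted p = 0.00541). Nop56 had values of 9.47, 9.66 and 9.70 in Th0 samples and 10.15, 10.29 and 10.46 in naive samples, and fell by 0.69 (SE 0.16, adjusted p = 0.000849). None of these overlapped. Ncl fell by 0.36 and Npm1 by 0.40. The call of Ncl was lost in 4 of 18 settings, 3 of them without KO Th0 sample 1 (adjusted p = 0.0625), KO Th0 sample 3 (0.0519) or KO naive sample 3 (0.0611). Without KO Th0 sample 3 that of Npm1 was lost too, with a difference of -0.25 (adjusted p = 0.154). Against these, Myc had values of 10.00, 10.37 and 10.24 in KO Th0 samples and 9.92, 9.68 and 9.97 in naive KO samples. All its Th0 values lay above the naive ones, and the difference of 0.35 did not pass (SE 0.20, adjusted p = 0.183).

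Beside these comparisons stand the proliferation genes. Of the 29, 28 rose in WT Th0 cells against naive, with a median of 4.13, and 22 rose and 1 fell in KO Th0 cells against naive, with a median of 2.32. In KO cells 26 rose without the samples numbered 1 in Th0 and Th1, with a median of 2.99. Of the markers, Prf1 fell by 2.34 and Cd8b1 by 0.85 in WT Th0 against naive cells, and by 1.90 and 1.57 in KO Th0 against naive cells. In WT cells Cd28 fell by 0.67, Cd3e by 0.40 and Cd3g by 0.21, and of the myeloid markers Adgre1 rose by 0.59 and Itgam fell by 0.38. In KO cells Cd3d rose by 0.23 and Cd79b fell by 0.41. The part of these lists was not tested.

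In WT cells the lineage conditions were each set against Th0. In Th2, 25 of the 33 genes fell, against 22.9% of all genes, and 1 rose, against 17.2% of all genes. The median difference was -0.64 over the 33 genes and -0.06 over all genes. Leaving out any 1 of the 6 samples gave between 21 and 27 falls.

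Dkc1 fell most in WT Th2, with values of 8.48, 7.39 and 7.17 in Th2 samples and 9.14, 9.26 and 9.25 in Th0 samples, by 1.54 (SE 0.23, adjusted p = 3.47e-06, limma), a 2.91-fold lower signal. Polr1b had values of 7.50, 6.64 and 6.37 in Th2 samples and 8.40, 8.23 and 8.11 in Th0 samples, and fell by 1.41 (SE 0.22, adjusted p = 7.23e-06). Myc had values of 9.92, 9.23 and 9.08 in Th2 samples and 10.78, 10.74 and 10.76 in Th0 samples, and fell by 1.35 (SE 0.20, adjusted p = 5.09e-06). No Th2 sample of these 3 genes reached the Th0 range, and Th2 sample 1 was the highest of its group each time.

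Utp20 and Bop1 fell by 0.74 and 0.76 in WT Th2. Ncl and Npm1 did not pass there, with differences of 0.02 and 0.19. Polr1c had values of 10.01, 9.93 and 10.00 in Th2 samples and 9.67, 9.61 and 9.63 in Th0 samples, and rose by 0.34 (SE 0.08, adjusted p = 0.00132), the one gene of the 33 that did.

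Markers moved beside the falls in WT Th2. Adgre1 rose by 3.74 (SE 0.22, adjusted p = 5.64e-14, limma), Cd79b rose by 0.47 and Cd28 rose by 0.36, while Cd5 fell by 0.93, Itgam by 0.56, Prf1 by 0.52 and Cd3e by 0.38. Of the 29 proliferation genes 3 fell, with a median of -0.52, and 18 fell when the KO samples numbered 1 in Th0 and Th1 were left out of the fit. The part of these lists was not tested.

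**Figure D4:**
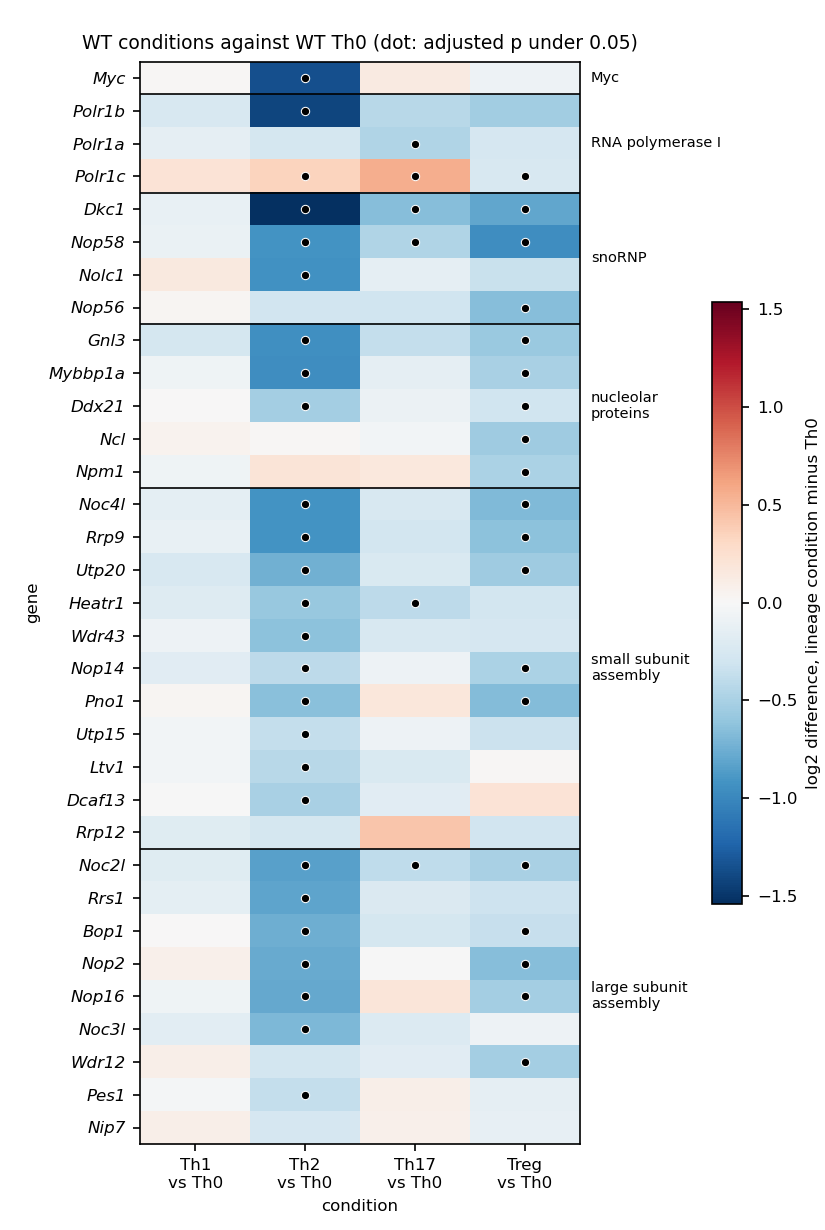
Difference between each WT lineage condition and WT Th0 for 33 genes (rows, grouped by role). Colour gives the log2 difference, lineage condition minus Th0, blue for lower in the lineage condition, and a dot marks an adjusted p under 0.05 by limma: 25 genes fell in Th2, 19 in Treg, 5 in Th17 and none in Th1, and Polr1c rose in Th2 and Th17.

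In Treg conditions 19 of the 33 genes fell in WT cells, against 22.4% of all genes, and none rose, against 19.2% of all genes, with a median of -0.49. Without WT Th0 sample 1 the count was 12. Nop58 had values of 8.45, 8.32 and 8.42 in Treg samples and 9.51, 9.26 and 9.30 in Th0 samples, and fell by 0.96 (SE 0.18, adjusted p = 8.95e-05, limma). Dkc1 fell by 0.80 (SE 0.23, adjusted p = 0.00531), and Noc4l fell by 0.68 (SE 0.18, adjusted p = 0.00262). The groups of none of these overlapped.

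All 5 nucleolar proteins fell in WT Treg, among them Ncl by 0.54 (adjusted p = 0.00026) and Npm1 by 0.49 (adjusted p = 0.00341). Nop56 fell by 0.65, Utp20 by 0.55 and Bop1 by 0.36, a call that Bop1 lost in 6 of 18 settings, 5 of which left out 1 sample. The values of Myc were 10.90, 10.52 and 10.63 in Treg samples, which spanned the Th0 values (difference -0.08, SE 0.20, adjusted p = 0.807). All 29 proliferation genes fell in the same comparison, with a median of -2.17. Markers moved as well: Prf1 rose by 1.51 and Itgam by 0.77, while Cd8b1 fell by 1.05, Adgre1 by 0.66, Cd4 by 0.61, Cd5 by 0.41 and Cd3d by 0.25. The part of these lists was not tested.

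In Th17 conditions 5 of the 33 genes fell in WT cells, against 18.8% of all genes, and 1 rose, against 20.3% of all genes. The 5 were Dkc1, by 0.65 (SE 0.23, adjusted p = 0.0234), Nop58, by 0.47 (SE 0.18, adjusted p = 0.0405), Polr1a, by 0.46 (SE 0.13, adjusted p = 0.00385), Heatr1, by 0.40, and Noc2l, a factor of large subunit assembly, by 0.39. Polr1c had values of 10.17, 10.20 and 10.22 in Th17 samples, all above its Th0 samples, and rose by 0.56 (SE 0.08, adjusted p = 2.51e-06). Without WT Th17 sample 2 no gene fell, and without WT Th17 sample 1, 9 fell. Beside them Ebf1 rose by 4.21 (SE 0.24, adjusted p = 4.02e-14), Cd28 by 0.39 and Cd3d by 0.24, and Itgam fell by 0.42. Of the 29 proliferation genes 5 fell, with a median of -0.60. When the KO samples numbered 1 in Th0 and Th1 were left out of the fit, 23 fell. The part of these lists was not tested. The Myc values of 11.14, 10.71 and 10.86 in Th17 samples overlapped those of Th0 (difference 0.14, SE 0.20, adjusted p = 0.629).

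In Th1 conditions none of the 33 genes passed in WT cells by limma, against 5.43% of all genes that rose and 5.4% that fell, and 1 had an unadjusted p under 0.05. Their median was -0.06. Myc lay at 10.73, 10.84 and 10.79 in Th1 samples, which overlapped those of Th0 (difference 0.02, SE 0.20, adjusted p = 0.977). Of the markers, Ebf1 rose by 0.88 and Cd28 by 0.47, and Cd79b fell by 0.76. None of the 29 proliferation genes passed. The part of these lists was not tested.

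Over the 6 WT groups the mean of a gene was lowest in Th2 for 23 of the 33 genes, in Treg for 9 and in Th17 for 1. It was highest in Th0 for 10, naive cells for 9, Th1 for 8, Th17 for 5 and Th2 for 1. Over the 6 KO groups the lowest mean was in Th2 for 27 genes, and the highest was in naive cells for 17, Th17 for 8 and Treg for 5. Of all 12 groups, KO Th2 was the lowest for 26 genes.

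Myc was ordered, from low to high, as KO Th2 (9.20 ± 0.39), WT Th2 (9.41 ± 0.45), naive KO (9.86 ± 0.16), naive WT (10.04 ± 0.16), KO Th0 (10.20 ± 0.19), KO Th1 (10.47 ± 0.25), KO Th17 (10.68 ± 0.21), WT Treg (10.69 ± 0.20), WT Th0 (10.76 ± 0.02), KO Treg (10.77 ± 0.44), WT Th1 (10.79 ± 0.06) and WT Th17 (10.90 ± 0.22) (mean ± SD, n = 3 each). Each group overlapped its neighbours in this order in at least part of its range.

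Other genes of the pathway were counted from lists of ribosome biogenesis genes and of genes commonly tied to Myc, none of which is among the 33. Of 110 other ribosome biogenesis genes tested, 53 fell and 1 rose in KO Th0 cells, 60 fell and 3 rose in Th1, 20 fell and 2 rose in Th2 and 8 fell and 1 rose in Th17. Of all genes, 19.6% fell and 16.8% rose in Th0, 23.7% and 17% in Th1, 8.88% and 7.51% in Th2 and 4.18% and 4.03% in Th17. None of the 110 passed in Treg or naive cells. Their medians were -0.30, -0.34, -0.20 and -0.19 in Th0, Th1, Th2 and Th17. Without the KO samples numbered 1, 43 fell in Th0 and 44 in Th1.

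The other ribosome biogenesis genes with the largest falls in Th0 were Rpf2, of large subunit assembly, by 1.06, Nhp2, a protein of the Dkc1 particle, by 0.98, and Bysl, of small subunit assembly, by 0.95. In Th2 they were Rcl1, by 1.12, and Wdr75, by 0.98, both of small subunit assembly, and Gar1, another protein of the Dkc1 particle, by 0.75.

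Of 28 other Myc-linked growth genes tested, 25 fell and 1 rose in KO Th0 cells, and 24 fell and 1 rose in Th1, with medians of -0.72 and -0.75. Without the KO samples numbered 1, 24 fell in Th0 and 22 in Th1. In Th2 12 fell, in Th17 2 fell, and in Treg and naive cells none passed. For Th0, Th1, Th2 and Th17 the shares of all genes are those given above for the other ribosome biogenesis genes. Slc7a5, a transporter of large neutral amino acids, fell by 1.85 in Th0 (SE 0.23, adjusted p = 7.68e-07, limma) and by 1.63 in Th1. Nme1, a nucleoside diphosphate kinase, fell by 1.46 in Th0, and Srm, spermidine synthase, fell by 1.42. Of the same 28 genes, 24 rose and 1 fell in WT Th0 against naive cells, with a median of 0.61, while in KO Th0 against naive cells 4 rose and 4 fell, with a median of -0.00. Of all genes, 31.2% rose and 22.3% fell in the WT comparison and 26.2% rose and 14.7% fell in the KO comparison.

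The proteins of the finished cytosolic ribosome were counted too. Of 61 tested, 10 fell and none rose in KO Th0 cells, while 19.6% of all genes fell and 16.8% rose. In Th1, 9 fell and 1 rose, while 23.7% of all genes fell and 17% rose. In both conditions the share of the 61 that fell was below that of all genes. The medians were -0.10 and -0.09. None of the 61 passed in Th2 or Th17, and 1 fell in Treg, against 2.51% of all genes. Many of these genes have near-identical pseudogenes, so that their probes may read several sequences and single genes are uncertain.

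**Figure D5:**
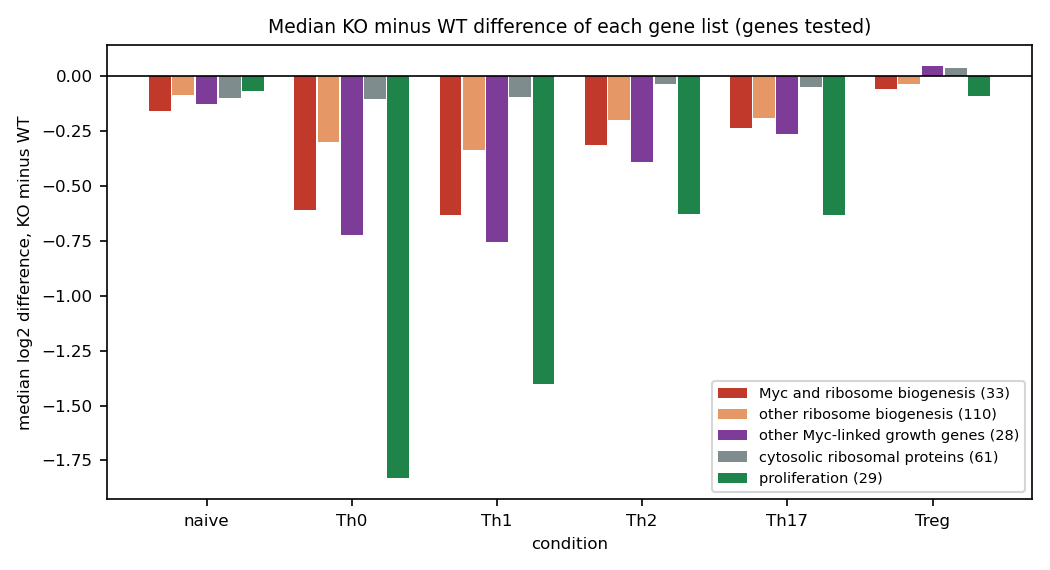
Median log2 difference, KO minus WT (vertical axis), of 5 gene lists in 6 conditions (horizontal axis); each bar is the median over the tested genes of the list, whose number stands in the legend. The 33 Myc and ribosome biogenesis genes are at -0.61 in Th0 and -0.63 in Th1, the ribosomal proteins near 0 and the proliferation genes at -1.83 and -1.40, and all lists are near 0 in Treg.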

How the data were processed

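Per the submitters' processing notes, the authors processed the Affymetrix arrays in R 3.1.0, using RMA of the oligo package, into the deposited log2 values; the annotation they used is not given in the sources used here. The values, 2.05 to 13.5 over 41345 probe sets, were used without further scaling. Genes were named from the platform annotation, which gives exactly 1 symbol to 23521 probe sets. Tested genes lay above the table's median, 5.26, in at least 3 samples.

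All 36 samples entered a single limma fit of 12 group means (version 3.58.1, R 4.3.3, 24 residual degrees of freedom, 27.9 with the prior; files read with the data.table package, version 1.17.8), and 17 comparisons were taken, with Benjamini-Hochberg adjustment over the 13082 genes in each. A gene was said to rise or fall at an adjusted p under 0.05. Precision is limited by there being 3 arrays a group. In simulated data for KO against WT Th17, over 13082 genes, 42 of 67 genes changed by 0.5 were recovered (62.7%), 60 of 67 changed by 1 (89.6%) and 65 of 66 changed by 2 (98.5%), with 9 false calls among 12882 genes. Noise was drawn separately for each gene and sample. Deviations shared by many genes of a sample were therefore not simulated, and recovery in the real data may be lower.

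The 35 genes and all lists were chosen with earlier results of these data known. Values in every sample are given for Myc, for a fixed set of the genes and, per comparison, for the 3 called genes with the largest change in the commoner direction; genes called in the rarer direction and genes not called in Th0 or Th1 are named too. Wdr12, Ddx21 and other genes named beyond these were chosen after their values were seen.

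Same-numbered samples were checked for pairing by correlating their deviations from the group means. All 3 correlations exceeded 0.1 between the Th1 and Th0 groups of WT (0.387, 0.33 and 0.23), between the Th2 and Th0 groups of WT (0.25, 0.119 and 0.112) and between the Th1 and Th0 groups of KO (0.697, 0.602 and 0.511). No block was used. Alternatives were no filter, a stricter filter (above 6.95 in 3 samples), 3 other scalings, averaging the probe sets of each gene, another prior, array weights, the replicate number as a block, a fit of the compared groups alone, a term for sex, and leaving out samples.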

Additional observations from a re-analysis of the deposited data

Results flagged for a closer look

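The results set out here are differences between conditions in the KO effect, each tested as a difference of differences against Th0 in limma. Positive differences past the test were found for 14 of the 33 genes in Treg, against 13.1% of all genes, for 6 in naive cells, against 10.4%, for 4 in Th17, against 7.41%, and for 3 in Th2, against 4.97%. In Treg they were largest for Nop58 (1.07), Dkc1 (0.98) and Nop16 (0.93). In naive cells they were largest for Nop56 (0.88), Nop2 (0.85) and Nop58 (0.80). In Th17 they were largest for Pno1 (0.87), Nop58 (0.76) and Bop1 (0.66), and in Th2 for Nop56 (0.92), Wdr12 (0.64) and Nop14 (0.52). KO minus WT was higher than in Th0 for each of these genes. In Th2, Nop56 had a KO minus WT difference of 0.01 and Wdr12 one of 0.29. Nop56 lost both calls when the probe sets of a gene were averaged, with 0.66 in naive cells (adjusted p = 0.0729, limma) and 0.62 in Th2 (adjusted p = 0.124). Of 24 alternative settings, Nop58 lost its call in 7 in naive cells and 11 in Th17, Wdr12 in 13, Nop14 in 12, Pno1 in 8, Bop1 in 6, Dkc1 in 5 and Nop2 in 1. The counts were 13, 3, 1 and 1 without KO Th0 sample 1 and KO Th1 sample 1, in which Mki67 was low. Of the 29 proliferation genes 24 had a positive difference past the test in Treg, 25 in naive cells, 5 in Th17 and 6 in Th2. Their medians were 1.76, 1.70, 1.23 and 1.22. Of the 28 other Myc-linked growth genes 22, 20, 9 and 2 did, with medians of 0.74, 0.67, 0.51 and 0.33. A negative difference passed for 1 of these 28 in Treg and 1 in Th2. The part of these lists was not tested.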

How the results depend on the processing

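Of 336 counts of genes past the test under the alternatives, 275 stayed within 1.5 times the count reported and 61 did not. The counts under alternatives, here and elsewhere, are of listed genes alone. The share of all genes called in the same setting is not given beside them. A move in such a count may therefore hold for the whole array, and cannot be read as particular to these genes. With no filter the count was 1 for KO against WT in Th17 and 1 for the Th2 difference of KO effects. With quantile normalization again these were 1 for KO against WT in Th17 and 7 for the Th17 difference. With cyclic loess the counts were 1 for WT Th1 against Th0, 11 for the naive difference, 8 for the Th17 difference and 23 for the Treg difference. With array weights they were 12 for KO against WT in Th17, 13 for WT Th0 against naive, 1 for WT Th1 against Th0, 10 for WT Th17 against Th0, and 10, 10 and 27 for the Th2, Th17 and Treg differences. With only the groups compared, a fit with fewer samples, they were 1 for KO against WT in Th2, 13 for WT Th0 against naive and 13 for the naive difference. Without KO Th0 sample 1 and KO Th1 sample 1 they were 3, 1 and 1 for the naive, Th2 and Th17 differences. Leaving out each sample in turn gave 23 to 28 genes for KO against WT in Th0, 22 to 27 in Th1, 2 to 17 in Th2 and 0 to 6 in Th17. It gave 0 in Treg and naive cells, 7 to 8 for WT Th0 against naive, 11 to 16 for KO Th0 against naive, and 0, 22 to 28, 1 to 10 and 12 to 18 for WT Th1, Th2, Th17 and Treg against Th0. For the naive, Th1, Th2, Th17 and Treg differences it gave 1 to 8, 0, 1 to 5, 0 to 7 and 8 to 24.

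The differences that changed sign passed in no setting. Dcaf13 in KO against WT Th0 was 0.0069 without KO Th0 sample 1, alone or with KO Th1 sample 1, 0.017 without KO Th0 sample 2 and 0.0042 without WT Th0 sample 3; leaving out single samples gave -0.13 at the lowest. Myc in KO against WT Th2 was 0.016 with array weights, 0.049 without WT Th2 sample 1 and 0.012 without KO Th2 sample 3, with a lowest value of -0.37 when single samples were left out. In KO against WT Treg it was -0.098 without KO Treg sample 2 and -0.0015 without WT Treg sample 2, with a highest value of 0.33. In WT Th1 against Th0 it was -0.0058 without WT Th1 sample 2, with a highest value of 0.053, and in WT Treg against Th0 it was 0.0063 without WT Treg sample 2, with a lowest value of -0.18. The cause of these changes was not tested.

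The fit with the replicate number as a block gave 29, 28, 15, 2, 0 and 0 genes for KO against WT in Th0, Th1, Th2, Th17, Treg and naive cells, 9 for WT Th0 against naive, 27 for WT Th2 against Th0 and 17 for the Treg difference, and the block moved no count by over 1.5 times. That block joins same-numbered samples of both genotypes. It therefore cannot take up a pairing within 1 genotype, such as that of KO Th0 with KO Th1, whose effect on the counts was not tested. With each sample centred on its median, the median over all genes was -0.11 in KO against WT Th1, against -0.03 without, and 0.16 in WT Th0 against naive, against 0.04 without. The main limits are 3 samples a group, samples whose origin in separate animals is not stated, samples that stand apart in KO Th0, KO Th1, WT Th2, WT Th17 and KO Treg, a sex that differs between naive samples, and RMA's common scale.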

Other observations

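Of 14 genes listed as partners of Myc in its network, 12 were tested, and they moved in both directions. For KO against WT 3 rose and 3 fell in Th0, against 16.8% and 19.6% of all genes. In Th1 4 rose and 4 fell, against 17% and 23.7%, and in Th2 2 rose and 1 fell, against 7.51% and 8.88%. In Th17 1 fell, against 4.18%, and none passed in Treg or naive cells. Mxd4, a repressor that competes with Myc for Max, rose in KO cells by 0.83 in Th0 (SE 0.11, adjusted p = 3.64e-06, limma), by 1.16 in Th1 and by 0.63 in Th2. Mnt, another repressor of this kind, rose by 0.34 in Th0 and by 0.42 in Th1, and Mxd1 rose by 0.79 in Th1. Mxd3, of the same family, fell by 1.72 in Th0 (SE 0.28, adjusted p = 2.53e-05) and by 1.44 in Th1. Mxi1 fell by 0.89 in Th1 and by 0.60 in Th17. Max itself did not pass for KO against WT in any condition, with differences from -0.10 in Th2 to 0.37 in naive cells. Between conditions it rose by 0.35 in WT Th1 against WT Th0 (adjusted p = 0.0329, limma). It fell by 0.34 in WT Th17 against WT Th0 (adjusted p = 0.0109) and by 0.26 in KO Th0 against naive KO cells (adjusted p = 0.0491).

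In WT Th0 against naive cells, Mxd3 rose by 2.70 and Mxd4 and Mnt fell by 0.32 and 0.59. Against WT Th0, 1 of the 12 rose and 1 fell in WT Th2, against 17.2% and 22.9% of all genes: Mxi1 by 1.82 and Mxd3 by 1.23. In WT Th17 2 rose and 3 fell, against 20.3% and 18.8%, with Mxi1 higher by 2.39. In WT Treg 4 rose and 3 fell, against 19.2% and 22.4%, with Mxd4 higher by 1.36 and Mxd3 lower by 2.20. Mlxip, which dimerizes with Mlx, rose in KO cells by 0.32 in Th0, 0.46 in Th1 and 0.25 in Th2, and Mlx fell by 0.33 in Th0 and by 0.25 in Th1. Tfap4, an E-box factor known as a target of Myc, fell by 0.43 in Th0, by 0.66 in Th1 and by 0.47 in Th2.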
